A study of Drosophila melanogaster with 4 samples.

Results

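The regions described here are the neighbourhoods of transfer RNA (tRNA) genes, each taken as 1 nuclear tRNA gene of the Ensembl BDGP6 annotation with 500 bp on either side. There were 290 of them among the neighbourhoods of 24166 annotated genes on the nuclear chromosome arms. The 22 mitochondrial tRNA genes were left out. Of the 290, 124 (42.8%) held a summit of the submitters' conservative peak list, against 24.3% of all annotated genes taken with the same flanks and 3.28% of equal-width tiles of the arms.

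Chromatin came from whole Drosophila melanogaster embryos collected at 0 to 24 h from transgenic flies that express the homeodomain protein Distal-less (Dll) fused to eGFP. It was sonicated to 200 to 800 bp and precipitated with an antibody against GFP, in 4 biological replicates that form 1 group. Every replicate carries the fusion, whole embryos mix all cell types, and the control library was not analysed here, so whether the summits at tRNA genes need the fusion protein was not tested. A replicate has an own thresholded list of 2523 to 3610 nuclear peaks and an own ranked list of 39011 to 44390, and the conservative list of 5203 derives from the alignments of all 4 replicates. Read totals are not part of these lists, and sequencing depth per replicate is unknown.

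Transfer RNAs carry amino acids to the ribosome, and their genes are short, are often present in identical copies and are transcribed by RNA polymerase III. The promoter lies inside the gene: the assembly factor TFIIIC binds an A box and a B box there, and TFIIIB, placed just upstream, recruits the polymerase. Dll is known in the fly for specifying the distal parts of legs, antennae and mouthparts, and homeodomain proteins bind short AT-rich DNA.

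Below are 6 tRNA genes chosen to show identical genes with unlike outcomes, as read from the RefSeq release 6 genome (dm6), 5′ to 3′ on the coding strand. Capitals mark a 9-base A box core, GNNNANNGG, at position 10 and a 9-base B box core, GTTCNANNC, at position 52 or 53, counted from the 5′ end of the gene. Lys-TTT-2-1 has no match to that A box core within 5 bases of position 10. The core has a fixed spacing and matched there in 203 of the 290 genes. The lack of a match therefore does not mean that the gene lacks an A box. The first gene is the solitary gene with the strongest summits. The next 3 come from families in which some copies had summits and others had none. The last pair comes from families with no summit in the conservative list or any own list.
tRNA:Gly-TCC-1-2, chr3R:7130947-7131018, minus strand: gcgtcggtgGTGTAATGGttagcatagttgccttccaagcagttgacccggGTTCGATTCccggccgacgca
tRNA:Gln-TTG-1-3, chr3R:26947512-26947583, minus strand: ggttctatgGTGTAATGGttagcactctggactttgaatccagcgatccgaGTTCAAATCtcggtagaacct
tRNA:Asp-GTC-1-1, chr2L:5241106-5241177, minus strand: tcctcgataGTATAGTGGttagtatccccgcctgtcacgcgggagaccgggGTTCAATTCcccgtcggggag
tRNA:Glu-CTC-3-1, chr3L:1379934-1380005, plus strand: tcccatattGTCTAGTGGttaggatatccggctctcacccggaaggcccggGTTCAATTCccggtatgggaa
tRNA:Lys-TTT-2-1, chr3R:6819894-6819966, plus strand: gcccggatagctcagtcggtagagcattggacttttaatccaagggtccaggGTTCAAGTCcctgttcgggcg
tRNA:Arg-TCG-3-1, chrX:14016203-14016275, plus strand: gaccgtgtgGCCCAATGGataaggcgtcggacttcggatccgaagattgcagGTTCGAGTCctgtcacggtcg

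The own lists placed a summit in 75 tRNA neighbourhoods (25.9%) in replicate 1, 108 (37.2%) in replicate 2, 65 (22.4%) in replicate 3 and 72 (24.8%) in replicate 4. Of the tiles of the nuclear arms, 1073 bp wide like the median neighbourhood, 2.39% held a summit in replicate 1, 2.46% in replicate 2, 1.75% in replicate 3 and 1.96% in replicate 4. The tRNA share was above the tile share in every replicate and replicate 2 was the highest for both. The means were 27.6% ± 6.60 for tRNA neighbourhoods and 2.14% ± 0.341 for tiles (SD, n = 4), a difference of 25.4 ± 6.34 percentage points. An exact sign-flip permutation test over the 4 replicates, two-sided, gave p = 0.13 (0.13 after adjustment over 13 such comparisons). That is the smallest p that 4 replicates allow, so no such test here could pass 0.05, and the other 12 gave the same value with the first-named set higher in 4 of 4 replicates.

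Much of the genome-wide signal of these lists sat at protein-coding promoters, so tRNA genes were divided by their distance to the nearest protein-coding transcript start. There were 80 near genes (within 1000 bp) and 210 distal genes (over 1000 bp). Distal tRNA neighbourhoods held a summit in 22.5% ± 5.54 of cases and distal tiles in 0.215% ± 0.0629 (SD, n = 4). The distal tile share was 0.263% in replicate 1, 0.274% in replicate 2, 0.154% in replicate 3 and 0.167% in replicate 4. In the conservative list, 78 of the 210 distal tRNA genes (37.1%) held a summit, against 0.504% of distal tiles. Near tRNA neighbourhoods held one in 40.9% ± 9.59 of cases and near tiles in 9.69% ± 1.43.

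Near tRNA genes had the higher share in each replicate, by 18.4 ± 4.55 percentage points over distal ones (SD, n = 4). When only summits nearer to the tRNA gene than to any transcript start were counted, an alternative added after the data were seen, the difference was 14.1 percentage points. By distance class, the mean own-list share was 40.9% for the 33 genes within 500 bp of a transcript start and 41.0% for the 47 genes beyond that and up to 1000 bp. It was 24.5% for the 100 genes over 1000 and up to 5000 bp away and 20.7% for the 110 genes farther away.

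Distal and all tRNA genes, at 22.5% and 27.6%, were above the other small-RNA genes treated by the same rule. Distal microRNA genes, transcribed by RNA polymerase II, held an own summit in 0.515% of 194 neighbourhoods in every replicate. Small nucleolar RNA genes, which guide rRNA modification and mostly lie in introns, did so in 3.90% ± 0.215 of 269. Small nuclear RNA genes, most of which serve the spliceosome, did so in 5.47% ± 4.69 of 32. Their share was 12.5% in replicate 1 and 3.13% in each of the others. Those with an own summit were the 3 U6 genes and snRNA:7SKa, listed below among RNA polymerase III transcripts. All tRNA genes, at 27.6% ± 6.60, exceeded windows of tile width centred on protein-coding gene starts, at 23.2% ± 2.85, by 4.34 ± 4.66 percentage points, a difference smaller than its own spread between replicates.

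**Figure D1:**
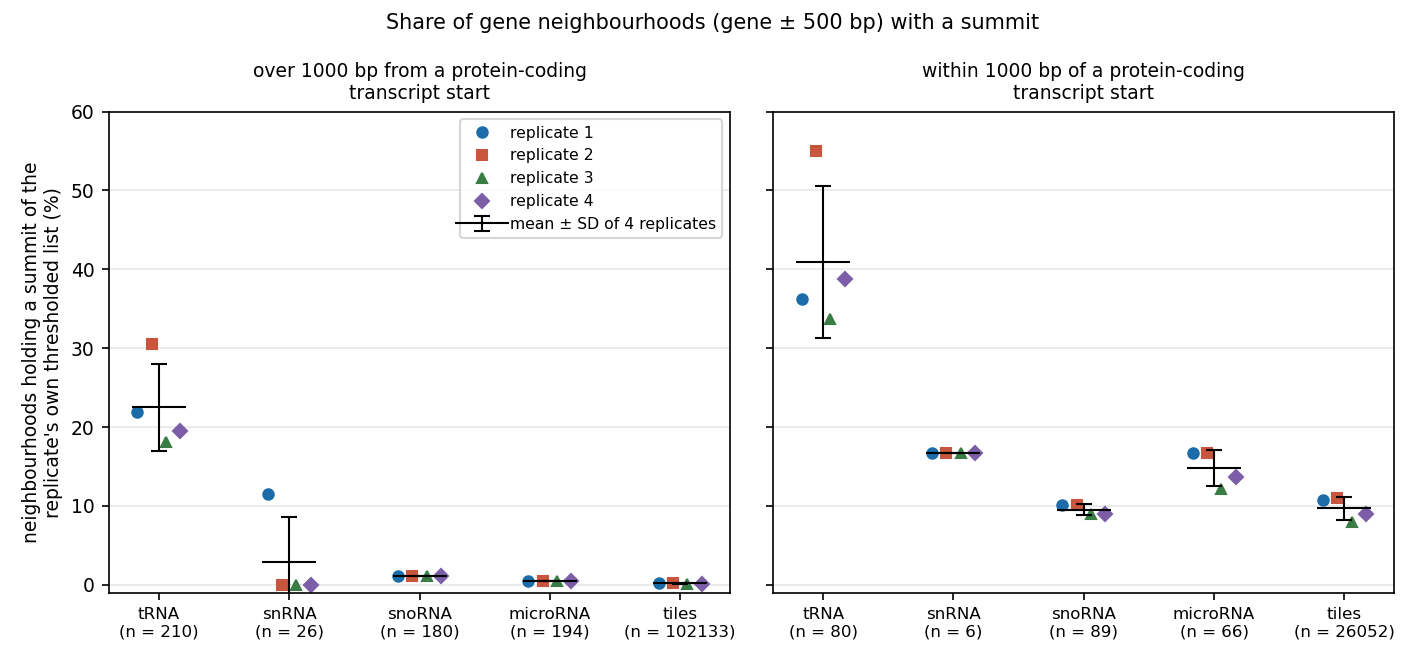
Share of gene neighbourhoods (gene with 500 bp on either side) that held a summit of each replicate's own thresholded list, in %, for distal regions (left) and near regions (right). Symbols are the 4 replicates and bars the mean ± SD; distal tRNA genes averaged 22.5% and distal tiles 0.215%, while near tRNA genes averaged 40.9% and near tiles 9.69%.

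Summits in tRNA neighbourhoods were few in number but formed a sizeable part of the summits far from promoters. An own list had 58 ± 17.6 summits within 500 bp of a tRNA gene, from 41 in replicate 3 to 82 in replicate 2. They were 1.82% ± 0.307 of a list, while the merged neighbourhoods cover 0.170% of the arms. Of the summits over 1000 bp from a protein-coding transcript start, 13.5% ± 1.39 lay in a tRNA neighbourhood, with 11.7% in replicate 1, 15% in replicate 2, 13.3% in replicate 3 and 14.0% in replicate 4 (n = 4).

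The summits were close to the genes. Of all own summits in the neighbourhoods, 79.2% ± 3.87 lay inside a tRNA gene or within 100 bp of one, and of the distal ones 91.3% ± 4.09 (SD, n = 4). Density was highest in and beside the genes: distal own summits numbered 619 ± 440 per Mb inside tRNA genes and 470 ± 74.9 per Mb at 1 to 100 bp. They numbered 51.2 ± 35.5 per Mb over 100 and up to 250 bp away, 7.25 ± 14.5 from there to 500 bp and 12.4 ± 10.6 from there to 1000 bp. The next 2 classes, up to 5000 bp away, had 7.91 ± 4.33 and 5.10 ± 0.785 per Mb, nearer one first, and beyond 5000 bp there were 1.85 ± 0.569. The density inside the genes had the widest SD, at 1237 per Mb in replicate 2 and 247 in replicate 4, whereas at 1 to 100 bp the replicates ranged between 361 and 530.

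Neither side of the gene was preferred by a margin above the replicate spread. On the strand of the nearest tRNA gene, 22.5% ± 7.27 of own summits were inside it, 36.9% ± 5.70 upstream and 40.6% ± 7.39 downstream (SD, n = 4). Replicate 2 had the highest share inside genes, 32.9%, and replicate 3 the lowest, 17.1%. The submitters place 1 summit per row, and with fragments of 200 bp or more, a gene of about 72 bp and its flanks are not resolved from each other by such lists.

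**Figure D2:**
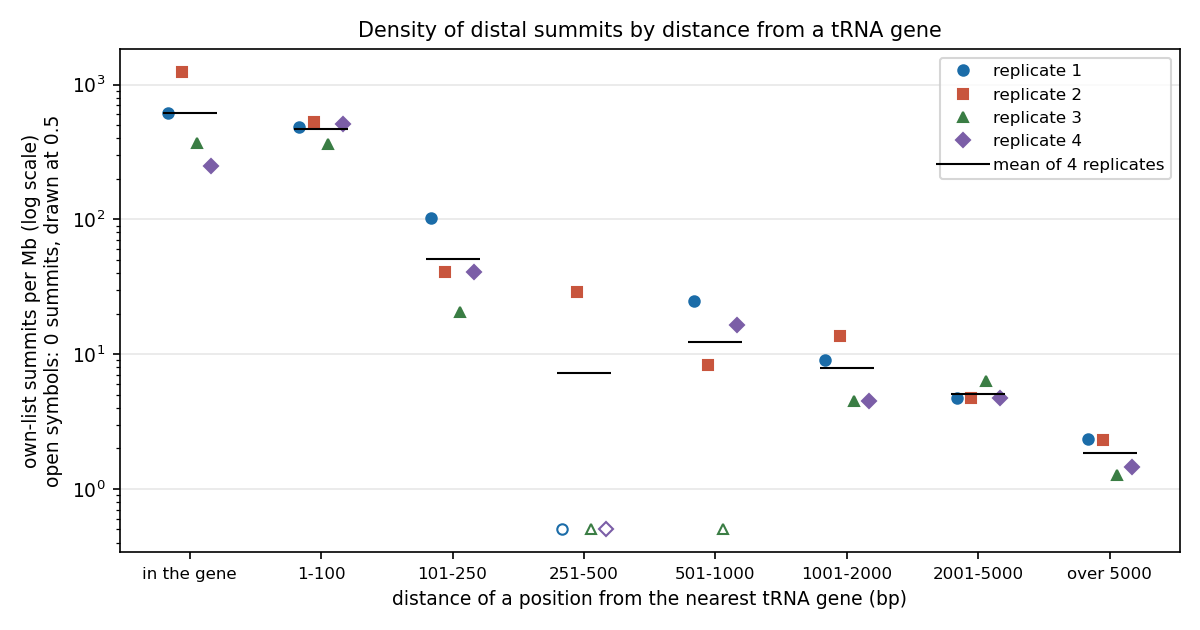
Own-list summits over 1000 bp from any protein-coding transcript start, per Mb of such sequence (log scale), by distance from the nearest tRNA gene in bp. Symbols are replicates and lines their mean; the mean was 619 per Mb inside genes, 470 at 1 to 100 bp and 1.85 beyond 5000 bp.

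Most tRNA summits were weak within the own thresholded lists. Percentiles here run from the strongest peak downwards by the authors' signal, within 1 list. The median tRNA summit stood at percentile 67.4 ± 3.50 of its own list (SD, n = 4), with 71.1 ± 4.19 for distal ones. Other distal summits of the own lists had a median of 71.0 ± 0.370, close to that of the distal tRNA summits, and other near summits 47.5 ± 0.309. The other lists differed. In the conservative list the distal tRNA median was 57.7, against 69.3 for other distal summits. In the ranked lists it was 16.2 to 22.5, against 56.7 to 59.1. The strongest tRNA summit of an own list stood at percentile 10.5 ± 3.20, and 4.41% ± 0.685 of its tRNA summits were in the top 20% of that list. With only the stronger 50% of each own list, the tRNA share exceeded the tile share by 5.87 percentage points in place of 25.4.

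Below the threshold the signal at tRNA genes was broader. The ranked lists, which are not thresholded, placed a summit in 78.3% of tRNA neighbourhoods in replicate 1, 83.4% in replicate 2, 81.7% in replicate 3 and 80.3% in replicate 4. The tiles did so at 25.0% in replicate 1, 22.7% in replicate 2, 27.9% in replicate 3 and 24.2% in replicate 4. All annotated genes with the same flanks held one in 52.5% to 58.6% of cases per ranked list. All 4 ranked lists had a summit in 188 tRNA neighbourhoods (64.8%), and 14 had none in any. The share of tiles or of all genes with one in all 4 was not counted, so these counts have no background beside them. Among the 158 neighbourhoods with no own thresholded summit, 65 had a ranked summit in all 4. A summit in the top 10% of a ranked list was present in 40.3% to 48.3% of tRNA neighbourhoods and in 2.78% to 3.23% of tiles.

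The replicates did not find the same tRNA genes throughout. An own summit was found in all 4 replicates at 29 genes (10%), against 1.34% of tiles, in 3 replicates at 34, in 2 at 33, in 1 at 36 and in none at 158. Of the 36 genes found once, 22 were found in replicate 2 alone and 7 in replicate 1 alone. Among distal genes 12 of 210 (5.71%) were found in all 4, against 0.0695% of distal tiles. Every one of the 29 genes also held a conservative summit, as did 32 of the 34 found in 3 replicates and 21 of the 158 found in none.

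The conservative peaks were also looked up in the own lists, as a description without a test. Of the 56 distal conservative peaks in tRNA neighbourhoods, 10 (17.9%) overlapped a peak in all 4 own lists and 12 (21.4%) in none. Of the 549 distal conservative peaks elsewhere, 97 (17.7%) overlapped one in all 4 and 216 (39.3%) in none. Near the promoters, 15 of 34 tRNA peaks (44.1%) and 2358 of 4564 others (51.7%) overlapped one in all 4.

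Neighbouring tRNA genes were joined into 174 loci, where gaps were 1000 bp or less: 105 solitary genes, 59 loci of 2 to 3 genes and 10 loci of 4 or more. A conservative summit was present in 48 of the 69 clustered loci (69.6%) and in 22 of the 105 solitary ones (21.0%). Counted per gene, an own summit was present in 35.0% ± 6.81 of the 185 clustered genes and in 14.5% ± 6.34 of the 105 solitary ones (SD, n = 4). Their difference was 20.5 ± 1.66 percentage points and varied less between replicates than either share did. It was 17.9 ± 1.71 points among distal genes alone.

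Clustered genes share summits, since 1 summit between such genes counts for each of them. When each summit counted for its nearest tRNA gene alone, an alternative added after the data were seen, the shares were 20.8% ± 5.59 for clustered and 14.5% ± 6.34 for solitary genes, 6.29 points apart. Per length of merged neighbourhood, clustered loci had 0.345 ± 0.0917 own summits per kb and solitary loci 0.146 ± 0.0589 (SD, n = 4). The loci of 2 to 3 genes had the highest per-gene share, 38.4% ± 7.22, above 26% ± 6.28 for genes in loci of 4 or more. Among distal genes these shares were close, at 29.8% ± 7.57 and 27.6% ± 2.45. In the conservative list the distal shares went the other way, at 45.2% and 56.4%. Counted per locus, 67.8% of the loci of 2 to 3 genes and 80% of the larger ones held a conservative summit.

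Identical copies also differed in share. The 290 genes have 95 distinct sequences, and 238 of them share theirs with another gene. The sources used here do not say how reads matching several copies were handled. Genes with a sequence of their own held an own summit in 15.4% ± 5.21 of 52 cases, those with 2 to 4 identical members in 27.2% ± 6.66 of 58 and those with 5 or more in 31.2% ± 7.49 of 180 (SD, n = 4). Copy number and clustering overlap: among single-copy genes the share was 27.0% ± 8.87 for the 25 clustered and 4.63% ± 1.85 for the 27 solitary ones. Among genes with 5 or more copies it was 40.0% ± 8.05 for the 118 clustered and 14.5% ± 6.58 for the 62 solitary ones, but among genes with 2 to 4 copies it was 25.6% ± 5.28 for the 42 clustered and 31.2% ± 13.5 for the 16 solitary ones. The clustered genes were thus higher among single-copy genes and among those with 5 or more copies. The excess over tiles was 13.2 points for the single-copy genes alone, another alternative added after the data were seen, in place of 25.4.

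**Figure D3:**
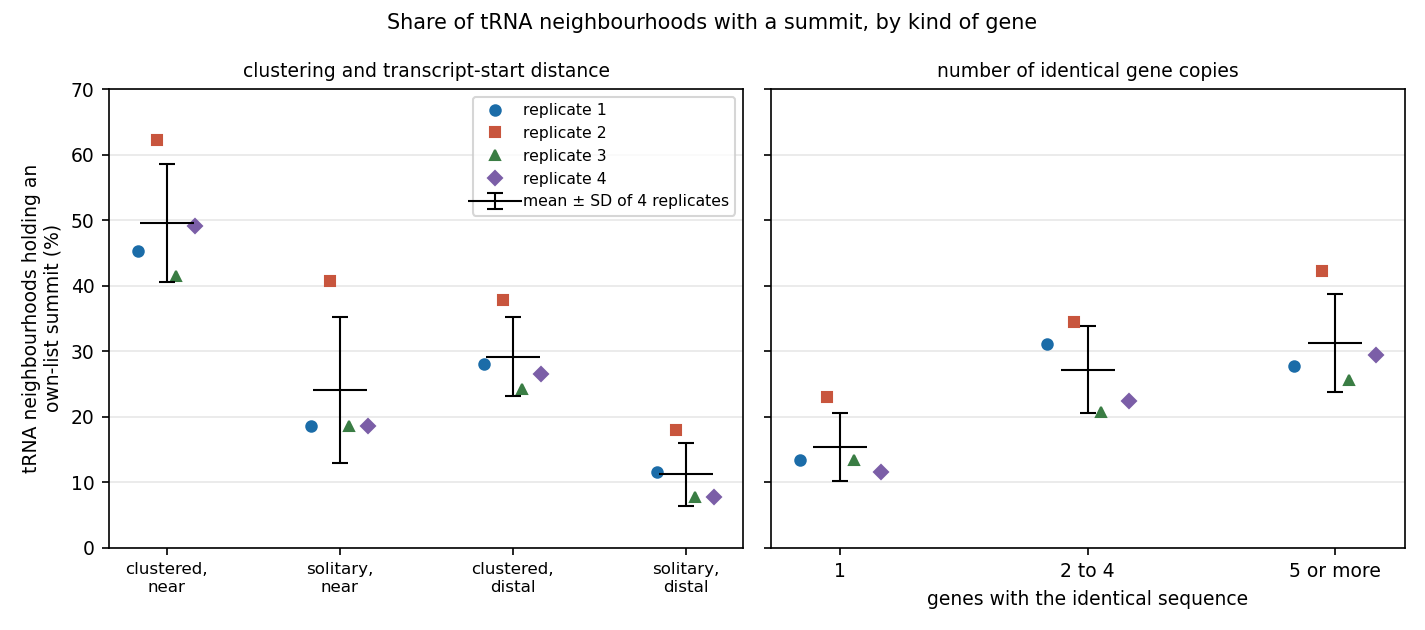
Own-list share of tRNA neighbourhoods in % by clustering and distance to a protein-coding transcript start (left) and by the number of genes with the identical sequence (right). Symbols are the 4 replicates and bars the mean ± SD; clustered genes averaged 35.0% and solitary genes 14.5% over both distance classes, and single-copy genes 15.4%.

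Identical genes often differed from each other. Of 43 families of 2 or more identical genes, 35 held members both with and without a conservative summit, 1 had a summit at every member and 7 at none. In 16 families 1 member or more was found in all 4 own lists while another was found in none. Of all 290 tRNA genes, 42.8% held a conservative summit and 158 were in no own list. How many mixed families these shares alone would give was not counted, so the family counts have no background beside them. The Asp-GTC-1 family shown above, which reads aspartate codons, has 12 identical genes in 9 loci: 6 held a conservative summit, 2 were in all 4 own lists and 7 were in no own list. The 2 found in all 4 were the adjacent Asp-GTC-1-4 and Asp-GTC-1-5, with their strongest summit between them in every replicate, at percentile 70.8 in replicate 1, 54.3 in replicate 2, 41.5 in replicate 3 and 58.1 in replicate 4.

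The Glu-CTC-3 family, which reads glutamate codons, has 9 identical genes in 3 loci of one arm, and 4 of the 9 held a conservative summit. Glu-CTC-3-8 and Glu-CTC-3-9 were found in 3 own lists, while the 4 genes of the locus from Glu-CTC-3-4 to Glu-CTC-3-7 were in none and lie 109 to 820 bp from the transcript start of CG32320. The Gln-TTG-1 family, for glutamine, has 3 members: Gln-TTG-1-2 and Gln-TTG-1-3 were in all 4 own lists and Gln-TTG-1-1 in none.

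Of the families without any summit in the conservative or own thresholded lists, a pair is shown above. The Lys-TTT-2 family, for lysine, has 5 identical genes, and for 4 of them the nearest transcript start was that of the Hox gene Dfd or Scr, 25470 to 28058 bp away. None had an own or conservative summit, 3 had no summit even in a ranked list and none had one in all 4. The single remaining Lys-TTT gene, Lys-TTT-1-1, also had none in the conservative or own lists. The Arg-TCG-3 family, for arginine, has 4 identical genes in 1 locus and had no own or conservative summit, while 3 of the 4 had a ranked summit in all replicates.

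By amino acid, histidine, asparagine and tryptophan genes had the highest conservative shares among isotypes with 5 genes or more, and leucine, glycine and tyrosine genes the lowest. Histidine genes held a conservative summit in 4 of 5 cases (80%), asparagine genes in 7 of 10 (70%) and tryptophan genes in 5 of 8 (62.5%). Leucine genes did so in 5 of 22 (22.7%), and glycine genes in 6 of 20 and tyrosine genes in 3 of 10 (30% each). These shares rest on few loci: the 4 histidine genes fall in 2 loci, the 7 asparagine genes in 3 and the 5 tryptophan genes in 4. Among distal genes alone, a conservative summit was present at 2 of 3 histidine, 7 of 10 asparagine and 1 of 4 tryptophan genes. It was present at 3 of 17 leucine, 1 of 14 glycine and 2 of 6 tyrosine genes that were distal.

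The own lists gave a similar order at the top with wide spreads. Histidine genes averaged 60% ± 16.3, tryptophan genes 53.1% ± 6.25 and asparagine genes 42.5% ± 9.57 (SD, n = 4). Tyrosine genes averaged 10% ± 14.1, initiator methionine genes 8.33% ± 16.7 and serine genes 13.8% ± 7.5. Tryptophan had 4 of 8 genes in all 4 own lists and glycine 4 of 20. Glycine genes were thus divided between loci found throughout and loci rarely found: 14 of the 20 were in no own list. At 3 loci of tryptophan and glycine genes, described below, the strongest summit lay nearer to a protein-coding transcript start than to a tRNA gene. Serine genes held conservative summits in 9 of 20 cases (45%), and leucine genes had 10 of 22 in some own list but none in all 4.

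The other isotypes lay between. Conservative summits were present at 8 of 17 alanine, 12 of 26 arginine, 6 of 14 aspartate, 3 of 7 cysteine, 6 of 12 glutamine, 7 of 19 glutamate and 5 of 11 isoleucine genes. They were present at 7 of 19 lysine, 2 of 6 elongator methionine, 2 of 6 initiator methionine, 4 of 8 phenylalanine, 8 of 17 proline, 8 of 17 threonine and 7 of 15 valine genes. The 1 selenocysteine gene had none. No isotype with 5 genes or more lacked a conservative summit, and against 3.28% of tiles every one of them was higher.

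**Figure D4:**
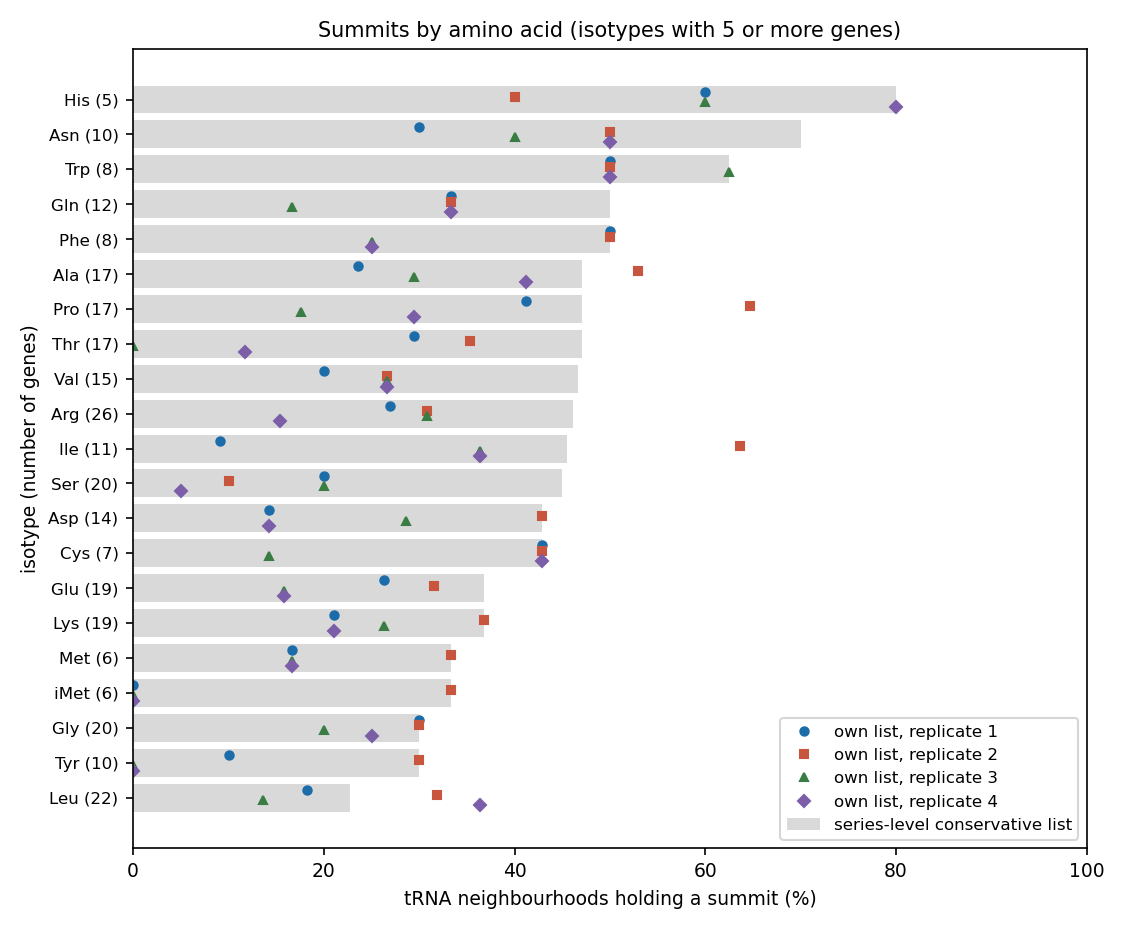
Share of tRNA neighbourhoods with a summit, in %, by amino acid, for isotypes with 5 genes or more (number of genes in brackets). Bars are the conservative list and symbols the own list of each replicate; histidine stands highest at 80% and leucine lowest at 22.7% in the conservative list, and the replicates spread widely within an isotype.

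At 19 loci an own summit was found in all 4 replicates, and the strongest summit of a locus lay within 100 bp of itself across replicates at 12 of them (median range 65 bp). At 15 of the 19 the strongest summit was nearer to a tRNA gene than to a protein-coding transcript start in every replicate. At 3 it was nearer to a transcript start in every replicate, and these 3 were among the 4 strongest. They are tryptophan and glycine tRNA pairs or triplets beside CG30389, CG30122 and tud, a gene required for germ plasm assembly.

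The strongest of all by mean percentile was the locus of Trp-CCA-2-3, Gly-GCC-1-12 and Trp-CCA-2-4 (chr2R:21161063-21161597). Its strongest summit stood at percentile 9.39 in replicate 1, 9.53 in replicate 2, 10.7 in replicate 3 and 16.3 in replicate 4. These summits lay 444 to 466 bp from the nearest tRNA gene but 52 to 74 bp from the transcript start of CG30389. At Trp-CCA-2-2 and Gly-GCC-1-9 (chr2R:18639557-18639796) the mean percentile was 19.3 ± 9.46 (SD, n = 4), with the strongest summits 206 to 245 bp from the tRNA gene and 42 to 81 bp from that of CG30122. At Trp-CCA-2-6 and Gly-GCC-1-13 (chr2R:21182678-21182926) it was 27.9 ± 9.45, with summits 306 to 367 bp from the tRNA gene and 29 to 90 bp from a start of tud. The summits that rank these 3 loci so high were thus the ones beside protein-coding starts.

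The locus of His-GTG-1-1 to His-GTG-1-3 (chr2R:12333926-12335066) was mixed, at a mean percentile of 37.2 ± 14.6. Its summit was nearer to His-GTG-1-3 in replicates 1 and 3 and nearer to the start of CG8490 in replicates 2 and 4. Arg-TCT-1-1 and Met-CAT-1-1 (chr2R:11652367-11652721) stood at 42.4 ± 7.21, with summits 56 to 102 bp from a tRNA gene and 638 to 724 bp from the start of CG34228.

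Among distal loci, Ala-CGC-1-1 to Ala-CGC-1-3 (chr2R:25076005-25077119), 7228 bp from the start of gol, had the lowest mean percentile, 45.8 ± 7.71 (SD, n = 4), at 38.3 in replicate 1, 42.9 in replicate 2, 45.7 in replicate 3 and 56.4 in replicate 4. Lys-CTT-1-5 and Arg-ACG-1-4 (chr2R:6171496-6171759), 1925 bp from Cyp6w1, stood at a mean of 46.3 ± 9.01 with its 1 summit per own list between the 2 genes, 24 to 59 bp from the nearer one. Phe-GAA-1-4 and Phe-GAA-1-5 (chr2R:17604535-17604843), 4928 bp from CG42649, stood at 47.8 ± 9.66 (SD, n = 4), with the strongest summit of every own list between the genes.

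The remaining 2 distal loci among those named were single genes. Trp-CCA-2-5 (chr2R:21181284-21181355), inside the gene Pu, had its strongest summits 7 to 38 bp upstream of the tRNA and a mean percentile of 53.9 ± 11.1 (SD, n = 4). Glu-CTC-2-3 (chr3L:22847725-22847796), 5716 bp from CG32462, had its summits inside the tRNA gene in all 4 replicates, spread over 9 bp, 34 to 43 bases from its 5′ end. They ranked at percentile 64.3 in replicate 1, 48.3 in replicate 2, 50.9 in replicate 3 and 74.5 in replicate 4.

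**Figure D5:**
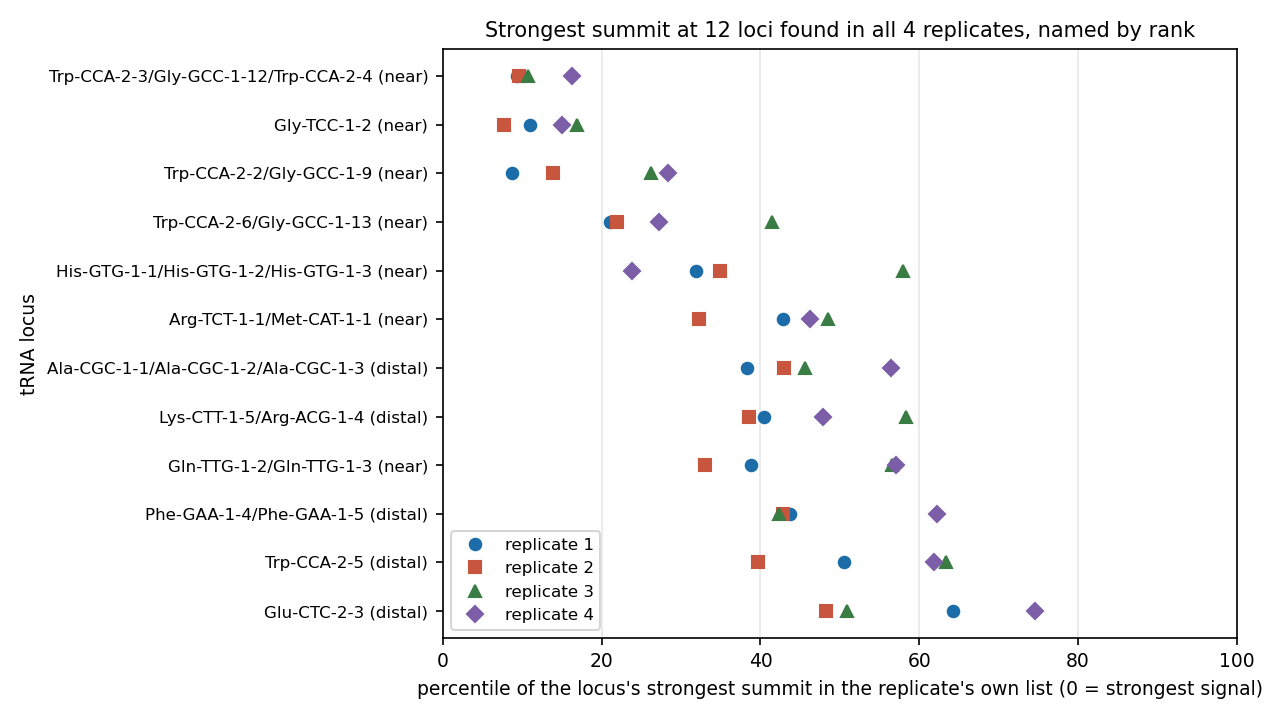
Percentile of the strongest summit in each replicate's own list (0 is the strongest signal) for 12 tRNA loci found in all 4 replicates and named for their rank among all or among distal loci, ordered by mean. Symbols are replicates; Trp-CCA-2-3 and its neighbours have the lowest mean of the 12, 11.5, and Glu-CTC-2-3 the highest, 59.5.

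The largest loci were not the strongest. The locus of 7 genes from Ile-AAT-1-3 to Leu-CAA-1-1 (chr2R:13430282-13432794) had an own summit in 3 replicates, near percentile 72, at different genes. The locus of 7 genes from Arg-TCG-2-1 to Arg-TCG-3-4 (chrX:14014814-14017284) had one in replicate 1 alone, at percentile 71.2. The locus of 6 genes from Cys-GCA-1-1 to Cys-GCA-1-4 (chr3L:3095737-3097590) had one in all 4, at a mean percentile of 64.7 ± 16.3 (SD, n = 4), beside Lys-CTT-1-12 in replicates 1 and 3 and beside Cys-GCA-1-1 in replicates 2 and 4.

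By chromosome arm, the own-list share was lowest on X, 6.25% ± 7.22 of 24 genes, with 0 of 24 in replicate 4. It was 23.8% ± 9.42 of 41 genes on 2L, 26% ± 9.70 of 48 on 3L, 27.2% ± 10.6 of 79 on 3R and 35.5% ± 8.14 of 98 on 2R (SD, n = 4). Of the 24 genes on X, 21 are distal. Among distal genes alone, the share was 3.57% ± 7.14 for the 21 on X, where replicate 1 alone had summits, at 3 genes, and 24.6% ± 6.27 for the 189 on the other arms (SD, n = 4). A conservative summit was present at 4 of the 21 and at 74 of the 189. These are descriptions, and the difference was not tested. The 134 tRNA genes inside a protein-coding gene had a share of 22.6% ± 9.39 and the 156 between genes 31.9% ± 4.48. Among distal genes the same comparison gave 24.2% ± 8.01 inside and 21.0% ± 3.98 between genes, in the other direction and within the spread.

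Sequence words were counted on both strands. The B box core GTTCGANNC was present in 64.5% of the 124 neighbourhoods with a conservative summit, in 57.2% of the 166 without and in 7.43% of tiles. The looser GTTCNANNC, which takes in every match of the first, was present in 99.2% of neighbourhoods with a summit, 95.2% without and 28.5% of tiles. The looser B box core thus marked the genes and hardly divided them. Inside the genes, a B box core lay within 30 bases of position 53 in 264 of 290, with 114 of 124 (91.9%) at genes with a conservative summit and 150 of 166 (90.4%) at those without. An A box core lay within 5 bases of position 10 in 84 of 124 (67.7%) and 119 of 166 (71.7%). The stricter A box core GNNNAGNGG was present in 83.1% of neighbourhoods with a summit, 82.5% without and 74.8% of tiles. The looser GNNNANNGG was present in 98.4%, 100% and 98.9%, so it did not set neighbourhoods apart from tiles.

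The homeodomain word TAATTA was present in 57.3% of neighbourhoods with a conservative summit, 69.3% of those without and 48.4% of tiles. In windows reaching 50 bp to either side of a summit it was present at 3 of 90 tRNA summits (3.33%), at 6.38% of other distal summits, 7.41% of other near summits and 6.44% of tile windows. The looser B box core was present in 43.3% of the tRNA summit windows, against 2.37% of other distal summit windows and 3.03% of tile windows. Median GC content of the neighbourhoods was 38.4% both with and without a conservative summit.

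Words known from protein-coding promoters were counted in the same windows, without a test of the differences. TATCGATA, the core bound by the promoter factor DREF, was present at 0 of 56 distal tRNA summits, 3 of 34 near ones (8.82%), 5.28% of other distal and 12.7% of other near summits, and 0.277% of tile windows. CGATAT, which can overlap it, was present at 0 of 56 distal tRNA summits and at 8.56% of other distal ones. GAGAGAG, which GAGA factor binds, was present at 1 of 56 (1.79%) and 9.65%, and GGTCACAC, part of the motif of the promoter factor M1BP, at 0 of 56 and 0.911%. Over whole neighbourhoods, TATCGATA was present in 12 of the 124 with a conservative summit (9.68%), 3 of the 166 without (1.81%) and 2.98% of tiles. GAGAGAG was present in 3 of the 124 (2.42%), 21 of the 166 (12.7%) and 11.9% of tiles.

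The solitary gene with the strongest summits, Gly-TCC-1-2, shows such a word beside its summit. Its summit stood at percentile 10.9 in replicate 1, 7.70 in replicate 2, 16.9 in replicate 3 and 14.9 in replicate 4, all within 21 bp of each other and 69 to 90 bp upstream of the gene. The nearest protein-coding start, of CG31493, lay 452 to 473 bp from these summits. The gene and the 150 bp before it (RefSeq release 6, dm6, chr3R:7130947-7131168, minus strand) are printed with capitals for GGTCACAC (here on the other strand, from position 35), TATCGATA (from position 62) and the B box core.
tRNA:Gly-TCC-1-2 with upstream sequence: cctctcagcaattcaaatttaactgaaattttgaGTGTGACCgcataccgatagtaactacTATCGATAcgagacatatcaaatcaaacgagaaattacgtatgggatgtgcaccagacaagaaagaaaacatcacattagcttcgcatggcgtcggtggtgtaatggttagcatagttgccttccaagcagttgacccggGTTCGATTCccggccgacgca

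The conservative summit fell at position 63 of this sequence, within the TATCGATA word. Of the 4 identical genes of the family, Gly-TCC-1-2 alone held TATCGATA or GGTCACAC in its neighbourhood. Gly-TCC-1-1 is its neighbour, with 1011 bp between the 2 genes, just over the limit for joining them into 1 locus. It was found in replicates 1 and 2 at percentiles 86.2 and 75.9, and Gly-TCC-1-3 and Gly-TCC-1-4 were in no own list though in all 4 ranked lists. In the conservative list, the summit of Gly-TCC-1-2 stood at percentile 7.09 and that of Gly-TCC-1-1 at 50.6.

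Of 106 genes listed as other RNA polymerase III transcripts, 3 (2.83%) held a conservative summit. All annotated genes had a share of 24.3% and the distal ones 2.51%. The share of 2.83% mostly reflects 1 array, since 96 of the 106 are 5S rRNA copies. Which polymerase transcribes each listed gene in the fly was not checked here. The genes with a summit were 1 of 2 7SK genes and 2 of 3 U6 genes. The 96 annotated 5S rRNA genes, which form a tandem array, had none in the conservative or own lists. How reads matching several 5S copies were handled is not stated in the sources used here, which limits that absence. The genes of 7SL RNA, RNase P RNA, RNase MRP RNA and U6atac also had none. Both 7SL genes (chr3R:6820131-6820429 and chr3R:6822500-6822798) lie among the Lys-TTT-2 genes, which had none either. One 7SK gene, snRNA:7SKa, whose RNA restrains transcription elongation, was in all 4 own lists at a mean percentile of 47.3 ± 11.1 (SD, n = 4), 772 bp from a protein-coding start. The 3 U6 genes, adjacent on 3R and 7071 to 8198 bp from a protein-coding start, held an own summit in replicate 1 alone, and 2 of the 3 a conservative one. The own summits stood at percentile 62.7 for snRNA:U6:96Ab and snRNA:U6:96Ac and 93.0 for snRNA:U6:96Aa.

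The protein-coding genes of the RNA polymerase III machinery, each taken with 500 bp on either side, often held summits. Of 25 such genes, 18 (72.0%) had a conservative summit and 10 (40.0%) an own summit in all 4 replicates. Under the same rule, annotated genes within 1000 bp of a protein-coding transcript start had 34.8% and 19.1%. Windows of tile width at protein-coding gene starts, which leave out most of a long gene, had 31.5% and 17.2%. The part that gene length plays was not tested. The strongest were CG8950, which encodes a TFIIIC subunit, at a mean percentile of 13.0 ± 3.91, and La, whose protein binds the 3′ ends of new transcripts, at 14.9 ± 4.02 (SD, n = 4). RNaseZ, which trims tRNA 3′ ends, stood at 16.6 ± 5.27, the TFIIIB subunit gene Brf at 20.7 ± 5.52, Tbp at 35.0 ± 6.13 and the SNAPc subunit gene Pbp49 at 35.7 ± 4.71. The genes Polr3F, Polr3K, Polr1C, Bdp1 and Maf1 had no summit in the conservative or own lists.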

How the data were processed

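Peak lists from 4 replicates of anti-GFP ChIP-seq, 1 group, were used: per replicate an own thresholded and an own ranked list, plus 7 thresholded series-level lists, all on dm6 per the labels. Per the deposited descriptions, each own list was made from alignments of its replicate with 1 further file. For the aligner, the peak caller and multiply matching reads, nothing is stated in the sources used here. The signal is the authors' deposited value per peak, its unit not stated, and served here for ranking inside 1 list alone. The score is the authors' deposited IDR score, and every thresholded list stops at 830. A further 14 columns, in series-level ranked lists, give replicate values that name no sample and were not used. Lists hold no counts, so depth is unknown. Precision is the spread between the 4 replicates. The p-values do not measure it: when all 4 differences have the same sign, p is the same whatever their spread.

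A summit is the start of a row plus its offset column. Genes came from Ensembl release 115 (BDGP6.54), and all 290 tRNA genes had the same coordinates in the RefSeq release 6 annotation. Tiles of 1073 bp covered the arms without gaps, 128185 in all and 102133 of them distal by their central part, and distances ran to 30773 transcript starts of 13968 protein-coding genes. Shares were compared by the exact sign-flip permutation test over replicates, two-sided, threshold 0.05, Benjamini-Hochberg adjusted over 13 comparisons. The count of 124 was also obtained with bedtools 2.31.1, and the counting was tested on simulated data, with 100% of 100 planted summits recovered in each of 4 runs.

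The members, lists, words and tests were chosen with earlier results of these data known, the looser box cores after the words were counted. Loci were named by rule: up to 10 found in all 4 replicates and up to 5 distal ones, by mean percentile, and the 3 with most genes; the families printed were chosen after their values were seen. Alternatives changed flanks, overlap, thresholds, distance limits, lists and replicates. Values were computed in Python 3.11.15 with pandas 2.3.3, NumPy 2.4.6 and SciPy 1.17.1 and drawn with matplotlib 3.10.9.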

Additional observations from a re-analysis of the deposited data

Results flagged for a closer look

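In 8 of 37 sets of 4 replicate values, the highest or lowest replicate stood apart from the others by Dixon's criterion. Replicate 2 had 2.27% of its own summits in tRNA neighbourhoods, against 1.63% in replicate 1, 1.63% in replicate 3 and 1.73% in replicate 4. Its share was also high among genes with no identical copy, at 23.1% against 11.5% to 13.5% in the others, among initiator methionine genes, at 33.3% against 0% in each of the others, and among elongator methionine genes, at 33.3% against 16.7%. Replicate 3 was low for cysteine genes, at 14.3% against 42.9%, and for glutamine genes, at 16.7% against 33.3%, and high for tryptophan genes, at 62.5% against 50%. Replicate 1 was low for valine genes, at 20% against 26.7%. Each of the isotype values differs from the others by 1 to 2 genes. At each of these isotypes the other replicates had equal values, and such a set is flagged whatever the size of the difference. How many flags to expect by chance is therefore not known.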

How the results depend on the processing

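Of 62 alternatives over 8 results, none turned a direction, and 7 moved a value beyond its interval or a count by over 1.5 times. For differences between shares, only a turned direction was counted. A fall such as that from 25.4 to 5.87 points is therefore not among the 7. Since p is fixed by the number of replicates, the calls of the differences could not change. The conservative share of 42.8% (95% exact binomial interval 37% to 48.7%, which takes genes as independent although clustered ones share summits) became 35.9% with flanks of 250 bp, 50.3% with 1000 bp and 18.6% with the upper 50% of peaks by signal. The 6 other series-level lists gave 32.4% to 52.4%, with 35.2% in the fourth by length, and 40.2% of merged loci held a summit. The count of 29 genes found in all 4 replicates became 63 when 3 of 4 sufficed. The excess over tiles of 25.4 points became 5.87 with the upper 50% of each own list and 13.2 for genes with no identical copy, and clustered over solitary, 20.5 points, became 6.29 when a summit counted for its nearest gene alone. Leaving out 1 replicate gave 22.3 to 27.0 points over tiles, 19.6 to 23.7 for distal genes, 16.4 to 19.8 for near over distal, 19.8 to 21.1 for clustered over solitary, 54.4 to 56.9 in ranked lists, 32 to 42 genes and median percentiles of 66.1 to 68.4. Without replicate 2, the replicate with the most tRNA summits, the excess over tiles was 22.3 points. The smallest p with 3 replicates is 0.25. All 4 samples form 1 group, and each difference was taken within a replicate, so no other pairing applies. The unknown depth limits every absence: a gene without a summit had none detectable at the threshold of the lists. The unknown handling of multiply matching reads also limits absences at genes with several copies.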
